A study of Mus musculus with 60 samples.

Results

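The brain arrays of a mouse tissue series were set against those of 7 other tissues, all hybridised to a made-to-order Affymetrix chip for glycan genes. The members were chosen by a measured value as well as by label: an array had to be labelled brain and to carry the probe set of Fut9, a fucosyltransferase that makes the Lewis x epitope of neural stem cells and neurons, above 6 on the log2 scale. Of 10 arrays labelled brain, 9 passed, out of 60 arrays from 18 animals in the whole series. They came from 3 St6galnac2 KO mice (-/-; 9093 female, 9100 and 9361 male), 3 wild-type mice of the same line (+/+; 9094 female, 9099 and 9362 male) and 3 C57 wild-type mice without a sex label (WTF1, WTF2 and WTM3). All mice were labelled healthy, and their ages were not given in the sources used here. The other 47 arrays were 7 of intestine (St6galnac2 KO and wild type, C57 wild type), 6 of thyroid and 6 of lymph node (St6galnac2 KO and wild type), and 9 of kidney, 7 of mammary gland, 6 of testes and 6 of thymus (B4galnt1/B4galnt2 double KO and wild type). Brain and intestine were thus the tissues taken from C57 mice, and kidney, mammary gland, testes and thymus came from a line that gave no brain, so line and tissue cannot be told apart for those 4. The sources used here state neither how the knockouts were made nor which brain region was taken.

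Brain glycans differ from those of most tissues in several known ways. Neurons carry complex gangliosides, which are sphingolipids whose sugar chains bear sialic acids, and myelin is rich in galactosylceramide and its sulfate. The space between neurons is filled by chondroitin sulfate proteoglycans of the lectican family, and many brain glycoproteins bear O-mannose glycans or the sulfated HNK-1 epitope. In whole tissue, more cells of a type and more RNA per cell cannot be told apart. Values below are log2 expression levels, on which a difference of 1 is a doubling, and errors are standard errors of a difference or standard deviations of a group.

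The rule left out 4 arrays whose levels of Fut9 or Prol1 went against their labels. Fut9 lay between 8.64 and 9.92 on the 9 brain arrays (median 9.33). On the first of 2 arrays labelled brain of animal 9099, Fut9 was at 3.21 and Ptprz1 at 3.39, whereas Lgals4, a galectin of the gut lining, was at 13.61 and Reg3b, an intestinal antibacterial lectin, at 13.46. The array labelled intestine of the same animal had Fut9 at 9.74, Ptprz1 at 8.81 and Lgals4 at 6.43. These 2 arrays were not used, nor were 2 wild-type thymus arrays, on which Prol1 (a lacrimal and salivary protein) was at 13.41 and 13.51. Prol1 was also high on arrays that the rule kept, at 11.08 on the lymph node array of wild-type 9362. On the mammary arrays of N3738, N9686, N5892 and N5895 it was at 9.74, 9.74, 9.79 and 12.47. Without animal 9362 altogether, its brain array included, 155 genes were called higher in brain and 132 lower, against 156 and 134 with it. That fit kept the mammary arrays, so it does not show what they did to the counts. Closest to the Fut9 limit of 6 among kept arrays below it were a pair of thymus arrays at 5.06 and 5.05 and a mammary array at 5.04, and the 7 kept intestine arrays reached 3.19. Kidney arrays had Fut9 between 9.47 and 11.05, a range that began within that of the brain arrays and ran above it. The limit thus marks brain only among arrays that are also labelled brain. Among the 9 kept brain arrays a set of 4 (KO 9100, wild-type 9099, wild-type 9362 and C57 WTF2) stood apart from the other 5 in many genes, and where a call rests on one set its value without that set is given beside it.

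The targeted genes gave no separation of the brain genotypes. St6galnac2, which adds sialic acid to O-linked GalNAc, had 5.49 to 5.71 in KO brains, against 5.67 to 5.71 in wild-type brains of the line and 5.71 to 6.04 in C57 brains. Where its probes lie relative to the deleted part was not given, so the level does not check the label. No brain came from the line in which B4galnt1 and B4galnt2 were deleted.

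Other genes of neural tissue were high on all 9 arrays, though the galactolipid gene Ugt8a, also a marker of the part, overlapped kidney arrays, as given below. Ptprz1, a receptor phosphatase and chondroitin sulfate proteoglycan of glia and their progenitors, and Ncan and Bcan, the lecticans neurocan and brevican, stood above every other array. Their promoter windows are shown because the 3 genes rank among the largest differences of brain. Each is the 250 bases before an annotated transcript start in RefSeq on GRCm38.p6, printed 5′ to 3′ on the gene's strand, with GGGCGG, the core of the GC box, in capitals on either strand. They lie at chr6:22875252-22875501 (plus strand, Ptprz1), chr8:70120845-70121094 (minus strand, Ncan) and chr3:88000357-88000606 (minus strand, Bcan).
Ptprz1: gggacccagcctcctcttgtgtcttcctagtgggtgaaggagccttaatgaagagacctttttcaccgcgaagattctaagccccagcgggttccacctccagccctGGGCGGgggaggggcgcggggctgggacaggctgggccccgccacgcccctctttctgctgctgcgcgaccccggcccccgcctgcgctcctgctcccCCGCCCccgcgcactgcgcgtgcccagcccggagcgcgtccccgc
Ncan: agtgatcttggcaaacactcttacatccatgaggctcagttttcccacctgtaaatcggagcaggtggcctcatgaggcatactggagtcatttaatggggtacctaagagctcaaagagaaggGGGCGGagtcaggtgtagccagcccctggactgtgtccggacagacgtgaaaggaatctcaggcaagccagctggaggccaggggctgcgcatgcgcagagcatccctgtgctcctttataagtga
Bcan: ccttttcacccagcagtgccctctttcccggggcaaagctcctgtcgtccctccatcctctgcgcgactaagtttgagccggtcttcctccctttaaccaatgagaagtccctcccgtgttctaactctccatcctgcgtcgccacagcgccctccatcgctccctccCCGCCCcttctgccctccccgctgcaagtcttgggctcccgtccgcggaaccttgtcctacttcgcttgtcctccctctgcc

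The Ptprz1 window held 22 CG pairs and 2 copies of GGGCGG, and the Bcan window 16 CG pairs and 1 copy. The Ncan window held 6 CG pairs, 1 copy of GGGCGG and 1 TATAAA on the opposite strand, where it reads TTTATA in the printed letters. Of the promoter windows of genes called above each of the 7 tissues (95 windows of 59 genes), 50.5% held GGGCGG on either strand. The share was 46.6% of the 875 windows of all array genes that matched and 32.7% of all 32851 RefSeq windows of the same length. TATAAA was found on either strand in 6.32% of the windows of genes above each tissue, 11.2% of those of the array genes and 12.4% of all windows. The median number of CG pairs was 14, 11 and 6 in the same 3 sets. These are descriptions of letters in the windows.

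Across the 909 named genes, 156 were called higher in brain than in the mean of the 7 tissue means (17.2% of genes) and 134 lower (14.7%), at an adjusted p under 0.05 and a log2 difference of at least 1. The median difference was -0.15, and 619 genes were not called. Since brain identity on 1 gene chose the arrays, the same contrast was also read where the choice removed nothing. In C57 mice 152 genes were higher in brain than in small intestine (16.7%) and 153 lower (16.8%), with 3 animals each. In St6galnac2 KO mice 162 genes were higher in brain than in the mean of thyroid, lymph node and intestine (17.8%) and 158 lower (17.4%). With all 60 arrays taken as labelled, 145 genes were higher in brain and 105 lower. The 3 comparisons share brain arrays, and their values stand side by side below.

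A stricter reading asked for the same call against each of the 7 tissues. By it 67 genes were higher in brain than in every tissue (7.37%) and 6 lower than in every tissue (0.660%). For 72 genes (7.92%) the lowest of the 9 brain arrays lay above the highest of the 47 others, and for 11 genes (1.21%) the highest brain array lay below the lowest of the others.

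**Figure D1:**
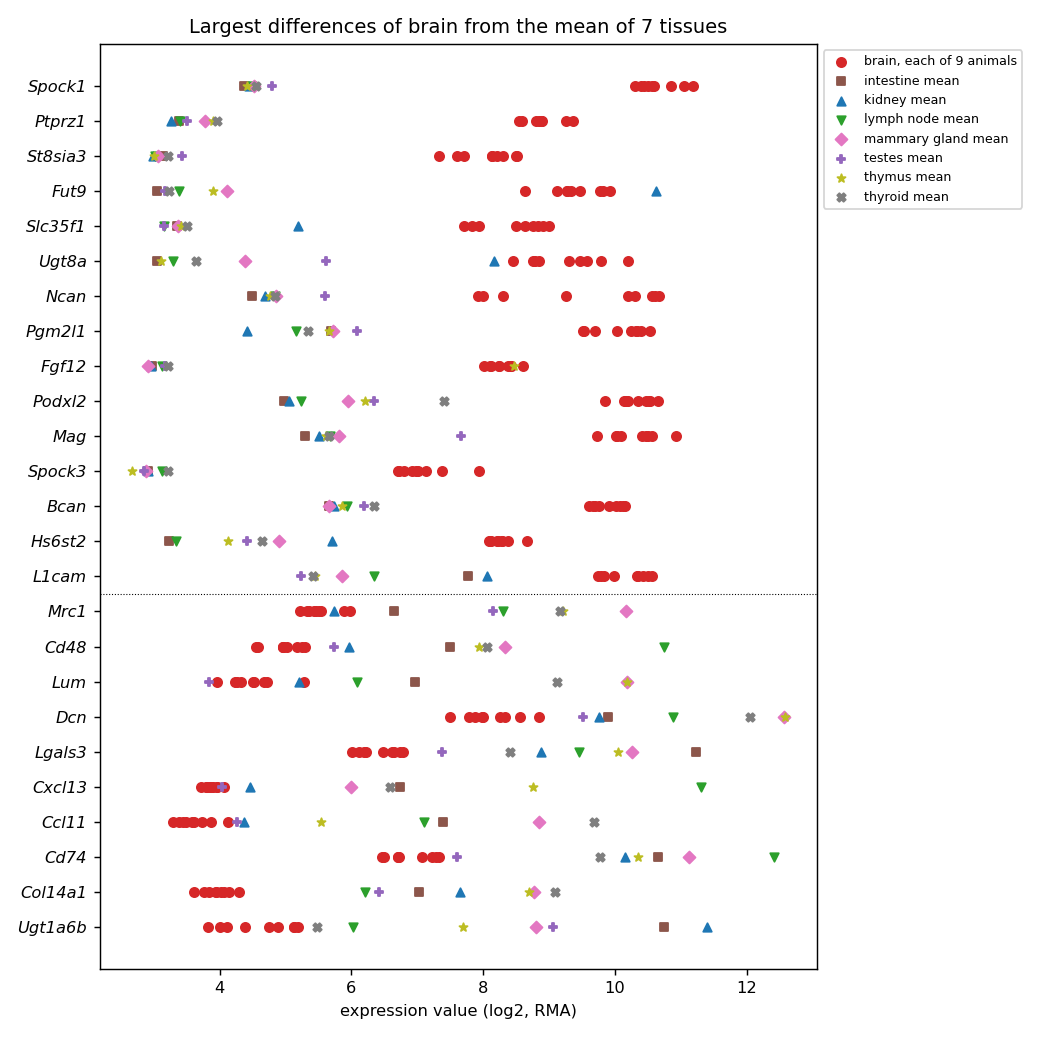
Expression (x axis, log2 RMA values) of the 15 genes with the largest positive and, below the dotted line, the 10 with the largest negative difference of brain from the mean of 7 tissues. Red points are the 9 brain animals and other symbols are means of the other tissues. Spock1 lies between 10.30 and 11.19 in brain with every tissue mean under 5, whereas kidney lies above brain for Fut9 and thymus among the brain points for Fgf12.

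Proteoglycan core proteins of the brain matrix held the largest differences of all. Of 11 measured lecticans and neural proteoglycans 7 were higher in brain and none lower, with a median difference of 1.96 against -0.15 over all genes. Spock1 (testican-1, a calcium-binding heparan and chondroitin sulfate proteoglycan secreted by neurons) was at 10.30, 10.56 and 11.19 in brain (lowest, median and highest of 9), against 4.12, 4.47 and 5.09 on the 47 other arrays. The groups did not overlap, and the difference was 6.14 ± 0.08, with 6.42 ± 0.20 in C57 mice (adjusted p = 2.5e-06) and 6.11 ± 0.10 in KO mice (adjusted p = 2.02e-11).
Spock3 (testican-3) was at 6.70, 6.98 and 7.94 in brain, against 2.58, 2.91 and 3.43 elsewhere, again without overlap. Spock2 (testican-2) differed by less, 1.96 ± 0.11, and its brain arrays overlapped the other arrays. Ptprz1 was at 8.54, 8.87 and 9.36 in brain, against 3.06, 3.51 and 5.18 on the other arrays. Bcan was at 9.61, 9.91 and 10.15 in brain, against 5.34, 5.85 and 6.49 elsewhere. Both were tight among brain animals, with standard deviations of 0.27 and 0.21. Ncan was as far from the other arrays (4.19, 4.76 and 5.79) but spread widely in brain, at 7.93, 10.20 and 10.67, with a standard deviation of 1.18.
Among cell surface heparan sulfate core proteins, 3 of 10 glypicans and syndecans were higher and 2 lower, with a median of 0.28. Gpc5 (glypican-5) was at 6.31, 7.37 and 7.59 in brain, against 3.03, 3.29 and 4.03 elsewhere, and Sdc3 (syndecan-3, the neural syndecan) was higher by 2.31 ± 0.09. Gpc3 and Gpc4 were lower by 1.11 ± 0.14 and 1.21 ± 0.17 in size, but their brain means lay close to or above that of lymph node, by -0.06 and 0.71. Without the set of 4 brain arrays Gpc4 differed by -0.83 and was not called.

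Most ganglioside synthesis genes, sialyltransferases among them, were higher in brain. Of 14 measured 10 were higher and none lower, with a median of 1.49, and 3 of them were above each of the 7 tissues. With the St6galnac2 line alone 8 were higher. St8sia3, which adds sialic acid to sialic acid on gangliosides and glycoproteins, was at 7.32, 8.13 and 8.52 in brain, against 2.80, 3.08 and 3.60 elsewhere, the third largest difference on the array (4.92 ± 0.08). St8sia5, the enzyme of the more highly sialylated gangliosides, was at 8.74, 9.39 and 10.43 in brain, against 5.25, 6.08 and 8.07 elsewhere. Neither gene overlapped with any other array, and for St8sia5 the next tissue, thyroid, was 1.85 lower.
St8sia1 (GD3 synthase) was at 7.16, 7.91 and 8.55 in brain, against 3.54, 4.13 and 9.14 elsewhere. Its high arrays outside brain were kidney, whose mean of 8.57 ± 0.36 (SD, n = 9) stood above the brain mean of 7.84 ± 0.41 (SD, n = 9). St3gal5 (GM3 synthase), the entry enzyme of the pathway, was at 10.11, 10.27 and 10.55 in brain, against 5.87, 7.65 and 10.10 elsewhere. The lowest brain array lay just above the highest thyroid array, and the thyroid mean was 0.81 below brain.
B4galt6 (lactosylceramide synthase), which makes the glycolipid core from which the pathway starts, was at 8.76, 9.10 and 9.46 in brain, against 4.45, 6.20 and 9.35 elsewhere, and intestine came within 0.34 of brain. In C57 mice its brain level exceeded the small intestine by 0.72 ± 0.29 (adjusted p = 0.0905), a difference that did not pass. St6galnac6 and St3gal2, which act on gangliosides and other acceptors, were higher by 1.49 ± 0.09 and 1.49 ± 0.14.
B4galnt1, the GM2/GD2 synthase that opens the complex gangliosides, depended on which arrays were set against brain. It was at 7.41, 8.03 and 8.90 in brain, against 4.73, 6.38 and 10.18 elsewhere, a difference of 1.28 ± 0.24. With the St6galnac2 line alone the difference was 0.01, and with wild-type arrays alone 1.51. In C57 mice brain minus small intestine was -1.09 ± 0.46 (adjusted p = 0.101), and the intestine mean over all kept arrays, 9.53 ± 0.71 (SD, n = 7), was above that of brain, 8.21 ± 0.53 (SD, n = 9). With the set of 4 brain arrays alone B4galnt1 differed by 0.86 and was not called.

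Counted by linkage, the sialyltransferases include the ganglioside enzymes above. Of 6 alpha-2,8-sialyltransferases 3 were higher and none lower (median 1.81), of 6 alpha-2,3 enzymes 3 higher and 1 lower (median 0.50), and of 7 alpha-2,6 enzymes 2 higher and 1 lower (median 0.09). St6galnac5, which makes alpha-series gangliosides, was at 5.16, 8.21 and 8.96 in brain, against 3.54, 4.15 and 6.34 elsewhere, with overlap that came from the set of 4 brain arrays. The alpha-2,6 enzyme that was lower was St6galnac2 itself, at 5.49, 5.71 and 6.04 in brain, against 5.49, 8.68 and 12.74 elsewhere. St3gal6, which sialylates N-acetyllactosamine, was lower by 1.23 ± 0.22 in size, at 6.25, 6.78 and 7.79 in brain against 6.28, 8.19 and 10.78 elsewhere. With the set of 4 brain arrays alone St3gal6 differed by -0.76 and was not called.

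Of 5 measured galactolipid genes of myelin 3 were higher in brain and none lower (median 1.04), and kidney or intestine was near or above brain for Ugt8a and Gal3st1. Ugt8a, the ceramide galactosyltransferase, was at 8.46, 9.30 and 10.20 in brain, against 2.82, 3.86 and 9.68 elsewhere. The 9 kidney arrays spread from 5.98 to 9.68, with a mean of 8.17 ± 1.55 (SD). Gal3st1, the sulfotransferase that turns galactosylceramide into sulfatide, was at 7.56, 7.93 and 8.59 in brain, and its intestine mean of 8.60 ± 0.27 (SD, n = 7) was 0.54 higher than brain. Mag (myelin-associated glycoprotein), the siglec of the myelin membrane, was at 9.73, 10.40 and 10.92 in brain, against 5.08, 5.66 and 7.88 elsewhere, without overlap. Its next tissue was testes, at 7.67 ± 0.16 (SD, n = 6), and the other 6 tissue means lay between 5.30 and 5.81. Of the 9 siglecs measured, Mag was higher and Cd22, the B cell siglec, lower by 1.09 ± 0.13 in size, with a median of -0.42. Each was 11.1% of the list, against 17.2% higher and 14.7% lower over all genes.

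**Figure D2:**
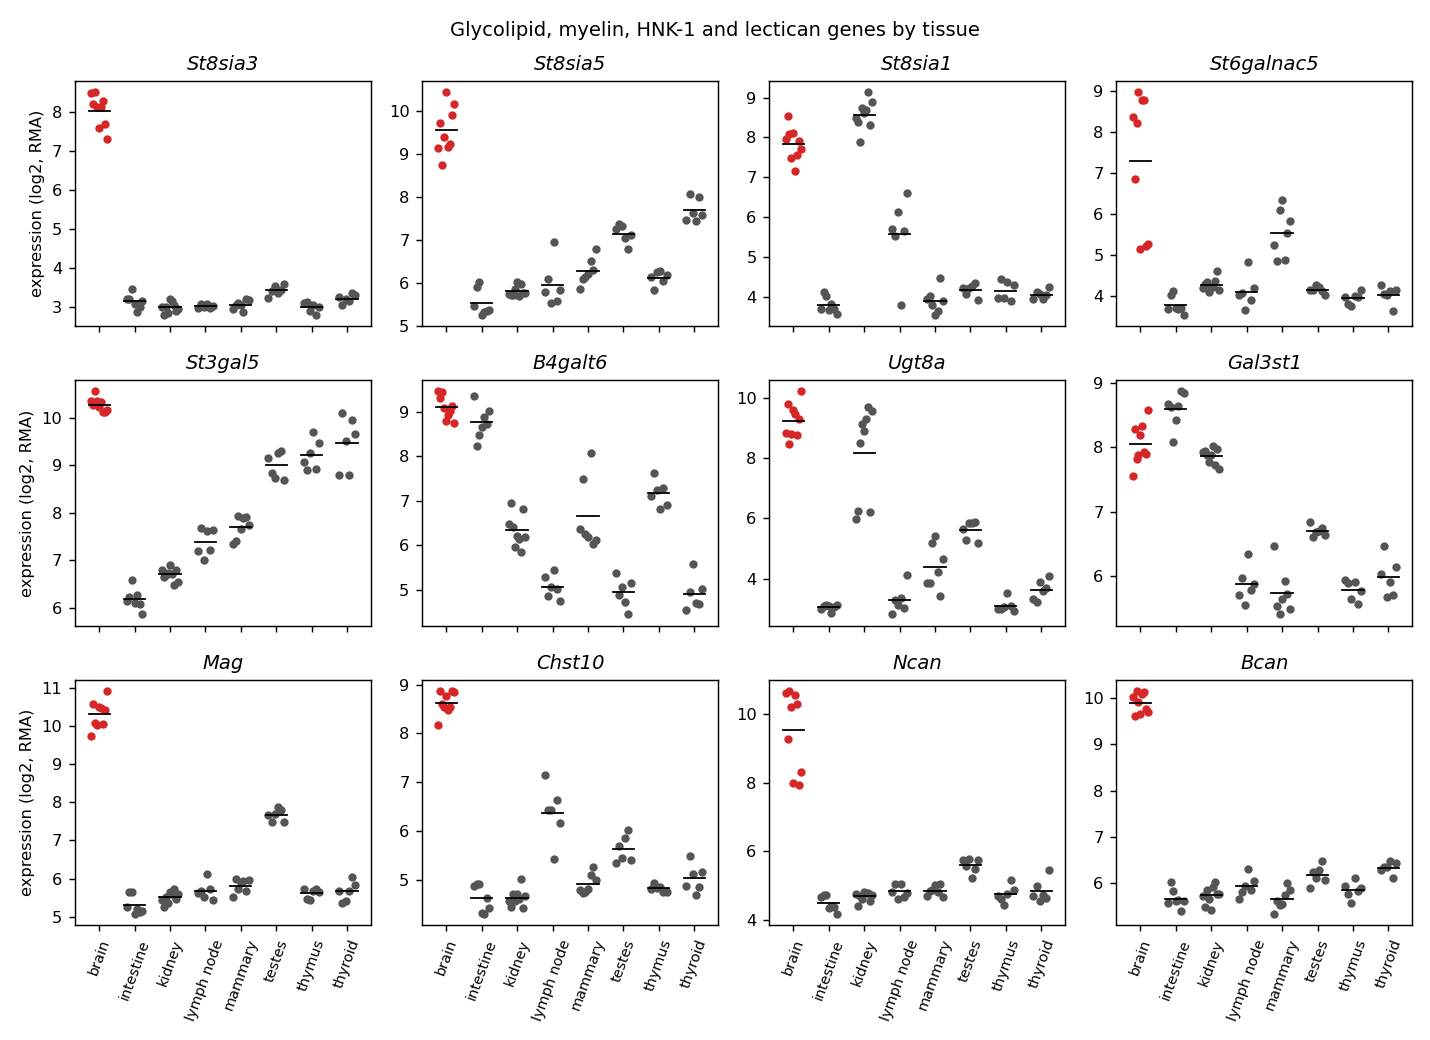
Expression (y axis, log2 RMA values) of 12 genes on every kept array, brain in red at the left and the other 7 tissues in grey, with tissue means as bars. St8sia3 lies between 7.32 and 8.52 in brain and at 3.60 or below elsewhere, St8sia1 is as high in kidney as in brain, and Ncan and St6galnac5 fall into a high and a low set of brain animals.

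Both measured genes of the HNK-1 epitope were higher in brain, while most glycosaminoglycan genes were not called. Chst10, the HNK-1 sulfotransferase, was at 8.18, 8.60 and 8.87 in brain, against 4.31, 4.87 and 7.14 elsewhere, without overlap. B3gat2, a glucuronyltransferase of the same epitope, was higher by 1.14 ± 0.12 but lay 0.70 below kidney.
Of 18 chondroitin sulfate and linkage genes 6 were higher and none lower (median 0.57). Ust, which sulfates uronic acid in chondroitin and dermatan sulfate, was at 9.89, 11.02 and 11.99 in brain, against 6.15, 8.16 and 9.76 elsewhere. Chst11 and Chst12, the chondroitin 4-O-sulfotransferases, were higher by 2.10 ± 0.24 and 1.29 ± 0.09, and B3gat3, which completes the linkage region, by 1.84 ± 0.08.
Of 24 heparan sulfate genes 8 were higher and 1 lower (median 0.31), and 6 of the 8 were above each of the 7 tissues. Hs6st2 (a 6-O-sulfotransferase) was at 8.09, 8.23 and 8.67 in brain, against 2.70, 4.48 and 6.32 elsewhere. The 3-O-sulfotransferases Hs3st5, Hs3st1 and Hs3st2 were higher by 2.52 ± 0.14, 2.49 ± 0.13 and 1.85 ± 0.14, and the N-deacetylase/N-sulfotransferase Ndst3 by 2.46 ± 0.15. Hs3st2 differed by 2.54 without the 4 brain arrays that stood apart and by 0.98, under the limit, without the other 5.
Chst2, a GlcNAc 6-O-sulfotransferase, was at 8.16, 8.86 and 9.14 in brain, against 4.13, 4.92 and 7.01 elsewhere. Chst8, a GalNAc 4-O-sulfotransferase, and Chst1, the keratan sulfate galactose 6-O-sulfotransferase, were higher by 2.84 ± 0.13 and 2.79 ± 0.21. In the same list of 8 sulfotransferases Chst4, of lymph node vessels, and Gal3st2 were lower by 1.09 ± 0.14 and 1.40 ± 0.20 in size. Both were not called lower with all arrays as labelled, and Chst4 differed by -0.99, just short of the limit, without the set of 4 brain arrays.

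O-glycan enzymes were counted by type. Of 10 O-mannose genes 4 were higher and none lower (median 0.40). Mgat5b, which branches O-mannose glycans in brain, was at 6.34, 7.79 and 8.17 in brain, against 3.69, 3.98 and 4.98 elsewhere. B4gat1, a glucuronyltransferase of O-mannose glycans, was higher by 2.17 ± 0.11, without overlap.
Of 19 polypeptide GalNAc transferases, which start mucin-type O-glycans, 6 were higher (31.6%) and 3 lower (15.8%), against 17.2% and 14.7% over all genes. Their median of 0.06 turned to -0.01 after a second quantile normalization. Galnt13, the neural family member that was higher by most, was at 5.26, 6.12 and 7.32 in brain, against 2.59, 2.78 and 3.30 elsewhere. Galnt9, Galnt17 and Galnt16 were higher by 2.77 ± 0.08, 2.41 ± 0.13 and 2.30 ± 0.11, all without overlap. Galnt4, abundant in gut, was lower by 1.23 ± 0.16 in size (-0.98 and not called with the set of 4 brain arrays alone), and Galntl5, a testis family member, by 1.34 ± 0.12.
Of 7 genes that extend mucin-type O-glycans into cores none was higher and 3 were lower (median -0.93). The count of lower genes was 1 after centring, after a second quantile normalization and with all arrays as labelled, and 1 gene was higher without the set of 4 brain arrays. C1galt1, the core 1 synthase, was at 4.51, 4.71 and 4.97 in brain, against 4.52, 5.65 and 8.03 elsewhere. Gcnt1 and Gcnt3, the core 2 enzymes, were lower by 1.13 ± 0.22 and 1.04 ± 0.11 in size. Without the 5 brain arrays outside the set of 4, Gcnt1 differed by -0.45 and was not called. With all arrays as labelled, C1galt1 (-0.95) and Gcnt3 (-0.76) fell short of the limit.

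N-glycan genes moved singly. Of 9 trimming and branching genes Mgat3, which adds the bisecting GlcNAc that is abundant in brain N-glycans, was at 6.82, 7.21 and 7.55 in brain, against 4.63, 5.0 and 7.22 elsewhere. Intestine came within 0.27 of brain. Man2a1 (Golgi mannosidase II) was below each of the 7 tissues, at 6.44, 7.05 and 7.32 in brain, against 7.51, 8.87 and 9.40 elsewhere.
Of 13 galactosyl and GlcNAc extension genes 3 were higher (23.1%) and 1 lower (7.69%), against 17.2% and 14.7% over all genes. B4galt1, the main galactosyltransferase of N-glycans in most tissues, was at 6.47, 6.95 and 7.20 in brain, against 7.94, 9.48 and 10.13 elsewhere. Its family member B4galt2 was higher by 1.41 ± 0.12, but by 0.79 without the 5 brain arrays outside the set of 4. B3galt1 was at 6.72, 7.67 and 8.36 in brain, against 3.70, 4.25 and 6.38 elsewhere, and a second probe set of the gene gave 3.52 in place of 2.98.
Of 19 precursor genes 2 were higher and none lower. Alg2, a mannosyltransferase of the lipid-linked precursor, was higher by 2.74 ± 0.10 and Dpm1, a subunit of dolichol-phosphate mannose synthase, by 2.0 ± 0.07.
Among 10 fucosyltransferases Fut9 was the one called, and it chose the arrays.

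Sugar supply genes included several large differences. Of 21 nucleotide sugar transporters and relatives 6 were higher and 2 lower (median 0.41). Slc35f1, whose substrate is not established, was at 7.71, 8.64 and 9.0 in brain, against 2.93, 3.41 and 5.68 elsewhere. Slc35f3 and Slc35f4 were higher by 3.47 ± 0.17 and 2.67 ± 0.10. Slc35d2, a transporter of UDP-GlcNAc and related donors, was below every other array, at 3.74, 3.85 and 4.35 in brain, against 4.42, 5.58 and 8.11 elsewhere.
Of 27 nucleotide sugar synthesis genes 4 were higher (14.8%) and 2 lower (7.41%), with a median of -0.28. These shares were under the 17.2% and 14.7% over all genes. Pgm2l1, which makes glucose 1,6-bisphosphate in brain, was at 9.51, 10.24 and 10.54 in brain, against 3.85, 5.44 and 6.71 elsewhere. Pmm1, a phosphomannomutase, and Galt, the enzyme of galactose use, were higher by 2.52 ± 0.16 and 2.0 ± 0.09.
Cmas, which activates sialic acid, was higher by 1.21 ± 0.12. Cmah, which converts N-acetyl- to N-glycolylneuraminic acid, the form that mouse brain largely lacks, was at 3.91, 4.20 and 4.45 in brain, against 4.34, 6.50 and 8.96 elsewhere. In C57 mice Cmah differed by -0.65 between brain and small intestine, and in KO mice by -2.50 from 3 tissues.

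Of 4 neural adhesion genes 3 were higher in brain (median 3.30), and growth factor lists held single large differences. L1cam, an adhesion molecule of axons, was at 9.75, 10.34 and 10.56 in brain, against 4.69, 5.97 and 8.43 elsewhere. Podxl2 (endoglycan), a sialomucin, was at 9.85, 10.36 and 10.66 in brain, against 4.72, 5.69 and 8.50 elsewhere.
Of 26 fibroblast growth factor genes 7 were higher and none lower, while the median was -0.11. The intracellular Fgf12 and Fgf13, which bind sodium channels, were higher by 4.44 ± 0.06 and 3.70 ± 0.23. Fgf12 was not brain-restricted on this array, since thymus averaged 8.47 ± 0.28 (SD, n = 6) against 8.28 ± 0.19 in brain (SD, n = 9) and the remaining 6 tissue means lay between 2.92 and 3.22. Fgfr3, the receptor of astrocytes, was at 9.0, 9.28 and 10.07 in brain, against 4.87, 5.91 and 8.29 elsewhere.
Of 8 neurotrophic genes 4 were higher and none lower (median 0.58). Bdnf, the brain-derived neurotrophic factor, was at 6.29, 7.09 and 7.22 in brain, against 3.66, 4.09 and 5.03 elsewhere. Cntfr and Gfra2, receptor subunits for ciliary neurotrophic factor and neurturin, were higher by 1.80 ± 0.08 and 2.46 ± 0.19.
Igfbp2 and Igf2, a binding protein and a ligand of the insulin-like axis, were higher by 3.31 ± 0.22 and 2.17 ± 0.29, and thymus lay 1.10 above brain for Igf2. In the same list of 13, with 3 higher and 3 lower and a median of -0.69, Igf1, Igfbp3 and Igfbp7 were lower, Igfbp7 below each of the 7 tissues.

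Connective tissue, galectin and some immune lists held many of the lower genes. Of 4 small leucine-rich proteoglycans 3 were lower (median -2.60). Dcn (decorin, a collagen-binding proteoglycan) was at 7.50, 7.99 and 8.85 in brain, against 9.25, 10.38 and 12.79 elsewhere. Col14a1, a fibril-associated collagen, was at 3.61, 3.95 and 4.29 in brain, against 5.53, 7.56 and 9.82 elsewhere. Neither gene overlapped, and both were below each of the 7 tissues.
Of 9 galectins 6 were lower and 1 higher (median -1.42). Lgals3 was at 6.0, 6.48 and 6.79 in brain, against 7.05, 9.36 and 11.70 elsewhere, and Lgals1 at 7.96, 8.54 and 9.40 in brain, against 9.13, 10.69 and 13.46 elsewhere. Lgals1 was below each tissue mean by a called difference, yet in the C57 comparison its -0.94 ± 0.49 did not pass (adjusted p = 0.175). Lgals2 was not called lower with all arrays as labelled.
Of 48 chemokines and receptors 14 were lower and 4 higher (median -0.79), and of 30 C-type lectins of myeloid and natural killer cells 14 were lower and none higher (median -0.84). The list of 66 interleukins and receptors did not follow, with 9 lower (13.6%, against 14.7% over all genes) and 3 higher (median -0.26). Ccl11 (eotaxin) and Cxcl13, the B cell attractant, were lower by 3.13 ± 0.18 and 2.96 ± 0.38 in size, and Mrc1, the macrophage mannose receptor, by 2.68 ± 0.14. Cd74, the invariant chain of antigen presentation, was at 6.47, 6.73 and 7.33 in brain, against 7.19, 10.43 and 12.91 elsewhere, with testes nearest at 7.61 ± 0.32 (SD, n = 6).
Among the 4 chemokine genes that were higher, Cx3cl1 (fractalkine, made by neurons) was at 9.15, 11.77 and 11.99 in brain, against 5.67, 6.50 and 9.79 elsewhere. Its receptor Cx3cr1, carried by microglia, was at 7.14, 8.70 and 9.04 in brain, against 4.53, 6.14 and 7.84 elsewhere.
The drug-conjugating enzyme Ugt1a6b, whose locus shares exons with other Ugt1a transcripts so that its probes may read several of them, had the largest negative difference. It was at 3.82, 4.75 and 5.18 in brain, against 5.06, 8.70 and 12.22 elsewhere. Of 6 cytosolic sulfotransferases 3 were lower and none higher (median -1.02).

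**Figure D3:**
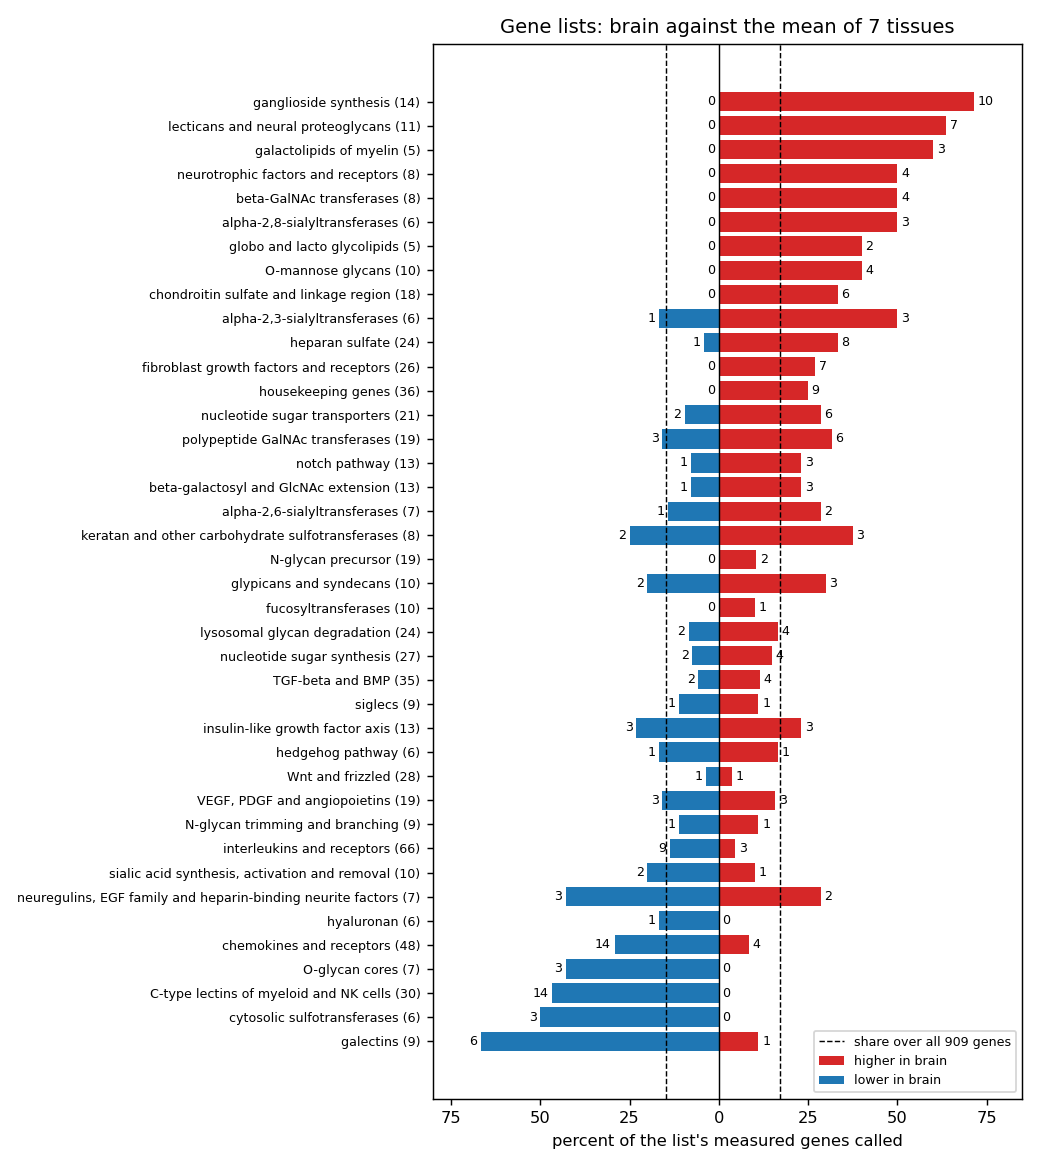
Percent of the measured genes of each list of at least 5 genes (number in brackets) that were called higher in brain (red, right) or lower (blue, left), with the number of genes beside each bar, ordered by the difference of the shares. Dashed lines mark the shares over all 909 genes, 17.2% higher and 14.7% lower, and ganglioside synthesis has 10 of 14 higher while galectins have 6 of 9 lower.

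Marker lists placed the brain arrays apart from all others for 3 neural cell types. The mean level of 10 neuron markers was 8.21 to 8.54 in brain, against 4.41 to 5.92 on the 47 other arrays, and all 10 were called higher. The mean of 5 astrocyte markers was 9.16 to 9.72 in brain, against 4.37 to 6.60 elsewhere, and that of 4 oligodendrocyte markers 8.20 to 8.94 in brain, against 4.85 to 7.49 elsewhere. The astrocyte list holds Fut9, which chose the arrays, and its other 4 genes averaged 8.97 to 9.80 in brain, against 4.71 to 5.61 elsewhere. Part of these lists came from genes already known to be high here, so their counts are no separate evidence.
Microglia markers did not set brain apart: 1 of 5 was higher and 1 lower, and their mean was 5.82 to 6.75 in brain, against 4.92 to 7.20 elsewhere. Of 5 vascular and meningeal markers 3 were lower and 1 higher, with a mean of 6.93 to 7.75 in brain, against 6.32 to 10.47 elsewhere. The mean levels of the lymphocyte and of the intestinal lining markers were lower in brain than on all 47 arrays. For lymphocytes they were at 4.07 to 4.41 in brain (median 4.20) against 4.49 to 9.55 elsewhere (median 4.90). For the intestinal lining they were at 4.77 to 4.99 in brain (median 4.90) against 5.05 to 11.15 elsewhere (median 5.25). No single gene of either list had all brain arrays below all 47. Of these lists 9 of 10 and 8 of 10 genes were lower. After a second quantile normalization 5 and 6 were, and with all arrays as labelled 8 and 1. What part the makeup of each tissue had in the differences was not tested.

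The nearest other tissue varied among the 67 genes above each of the 7. It was kidney for 18 genes, testes for 16, thyroid for 13, thymus for 6, lymph node for 5, mammary gland for 5 and intestine for 4. The widest margins over the next tissue were those of Spock1 (5.85 ± 0.11 above testes), Ptprz1 (4.93 ± 0.16 above thyroid) and St8sia3 (4.62 ± 0.11 above testes). Pgm2l1, Ncan, Spock3, Gpc5, Bcan, Galnt13 and Slc35f1 followed, with margins between 3.97 and 3.26. The narrowest called margins were close to the limit of 1, as for Slc35f3 at 1.02 above kidney and Huwe1 (a ubiquitin ligase) at 1.04 above kidney.
The 6 genes below each of the 7 tissues were Col14a1 (2.24 below lymph node), Dcn (1.39 below testes), B4galt1 (1.33 below testes), Lgals1 (1.20 below intestine), Man2a1 (1.06 below thyroid) and Igfbp7 (1.01 below intestine). With all arrays as labelled 3 genes met this rule, and after a second quantile normalization 10 did.
Against single tissues, brain was higher in 204 genes and lower in 88 against testes, and higher in 159 and lower in 116 against kidney. The numbers were 203 and 148 against lymph node, 172 and 164 against intestine, 168 and 88 against thyroid, 159 and 139 against thymus, and 156 and 140 against mammary gland.

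Side by side, the pooled difference and those of C57 and KO mice were close for some neural genes and apart for others. Ptprz1 differed by 5.29 ± 0.11 from the 7 tissues, by 5.41 ± 0.22 from small intestine in C57 mice and by 5.39 ± 0.15 from 3 tissues in KO mice. Mag differed by 4.41 ± 0.09, 4.62 ± 0.25 and 4.92 ± 0.13 in the same order, and Bcan by 3.97 ± 0.07, 4.12 ± 0.21 and 3.96 ± 0.11. L1cam differed by 3.87 from the 7 tissues but by 2.26 in C57 mice and 3.69 in KO mice, and Fgfr3 by 3.15, 1.94 and 3.52. Ugt8a differed by 4.77, 5.94 and 6.09, and Chga, a protein of secretory granules, by 3.68, 1.96 and 2.70, the last with an adjusted p of 0.0524. B4galnt2, which makes the Sda antigen of gut mucins, differed by -0.78 ± 0.42 in the pooled comparison and was not called, but by -8.20 in C57 mice, with 3.41 to 3.67 in C57 brains against 11.35 to 12.43 in C57 small intestine. In the St6galnac2 line, intestine arrays of KO and wild-type mice lay between 7.29 and 7.82.

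The 9 brain profiles were not one homogeneous set. Over the 909 genes the arrays correlated with each other at 0.963 to 0.997, and the median standard deviation of a gene was 0.191. For 86 genes the standard deviation was over 0.5, and for 15 over 1. After each gene's brain mean was removed, 4 arrays (KO 9100, wild-type 9099, wild-type 9362 and C57 WTF2) deviated together, with pairwise correlations of 0.453 to 0.862, and so did the other 5 (0.425 to 0.802). Between the 2 sets all 20 correlations were negative, -0.825 to -0.343. Taking out the mean of the same 9 arrays by itself tends to make correlations between arrays negative. The first component held 67.6% of the variance and separated the sets, and the second, with 17.7%, had the 3 C57 arrays at 4.16 to 7.58 and the 6 arrays of the St6galnac2 line at -4.84 to -0.85. These correlations are across genes, which are not independent replicates, and the 2 sets were seen in the values, not given by a label, so no test was made between them. Each set holds KO, line wild-type and C57 animals. By sex label, 9099, 9100 and 9362 of the set of 4 were male, while the 5 held the females 9093 and 9094 and the male 9361. The C57 animals carry no sex label, and the cause of the split was not tested.

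**Figure D4:**
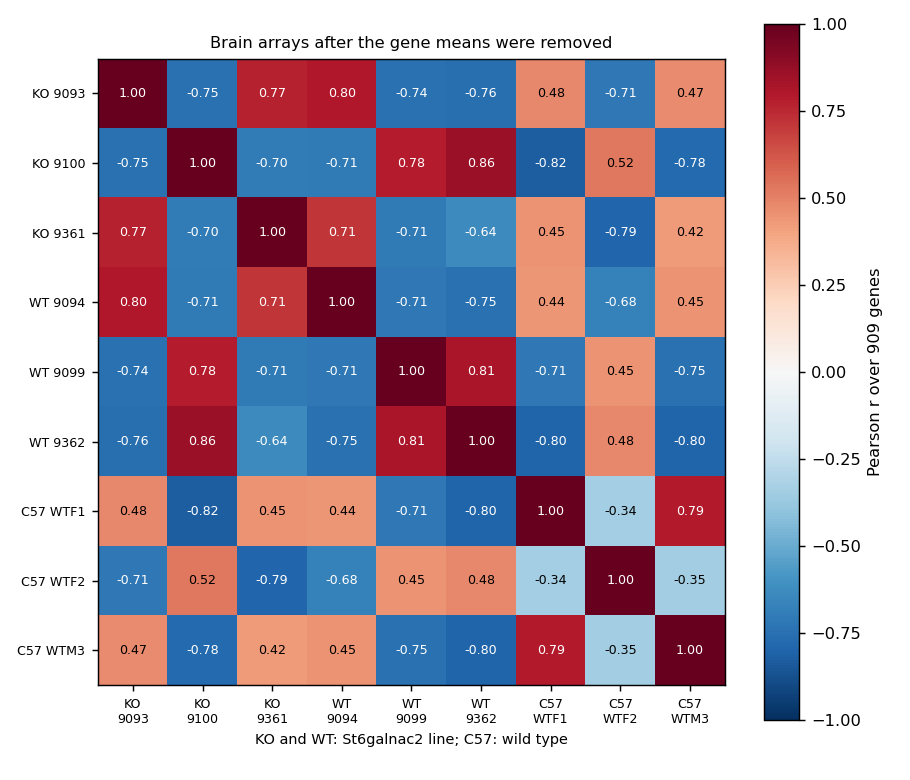
Pearson correlation over 909 genes between brain arrays after each gene's mean over the 9 arrays was subtracted, with both axes listing St6galnac2 KO, St6galnac2 wild-type and C57 wild-type animals. KO 9100, WT 9099, WT 9362 and C57 WTF2 correlate positively with each other and negatively with the remaining 5.

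The genes that spread most were of several families. Il22, a cytokine, was at 7.73, 7.48, 7.67 and 7.35 in KO 9100, wild-type 9099, wild-type 9362 and C57 WTF2, and between 2.79 and 3.49 on the other 5 brain arrays. The highest array of any other tissue had 3.19. Gdf10, a growth factor of the BMP family, was at 8.80 to 9.43 on the 4 and at 5.80 to 6.24 on the 5, and Hes3, a transcription factor related to the Notch targets that was chosen after its values were seen, at 7.72 to 8.56 on the 4 and at 4.86 to 5.16 on the 5.
The opposite pattern was seen for St6galnac5, at 5.16 to 6.86 on the 4 and 8.21 to 8.96 on the 5. Ncan was at 7.93 to 9.26 on the 4 and 10.20 to 10.67 on the 5, and Cx3cl1 at 9.15 to 10.69 on the 4 and 11.77 to 11.99 on the 5. On these 3 genes C57 WTF2 lay between the other 3 of the set of 4 and the 5.
The brain calls of Il22 and Gdf10 rest on the 4 arrays: without them Il22 differed from the 7 tissues by 0.18 and Gdf10 by 0.11, and with them alone by 4.70 and 3.26. St6galnac5 differed by 4.35 without the 4 arrays and by 1.35 with them alone, Ncan by 5.60 and 3.50, and Cx3cl1 by 4.81 and 2.56, all called either way. The numbers of calls moved little: 159 higher and 134 lower without the 4 arrays, and 154 higher and 138 lower with the 4 alone. Of the named genes, 23 were called with one set of brain arrays and not with the other, among them B4galnt1, B4galt2, Chst4, Galnt4, Gcnt1, Gpc4, Hs3st2, Jag2, Notch2 and St3gal6.

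**Figure D5:**
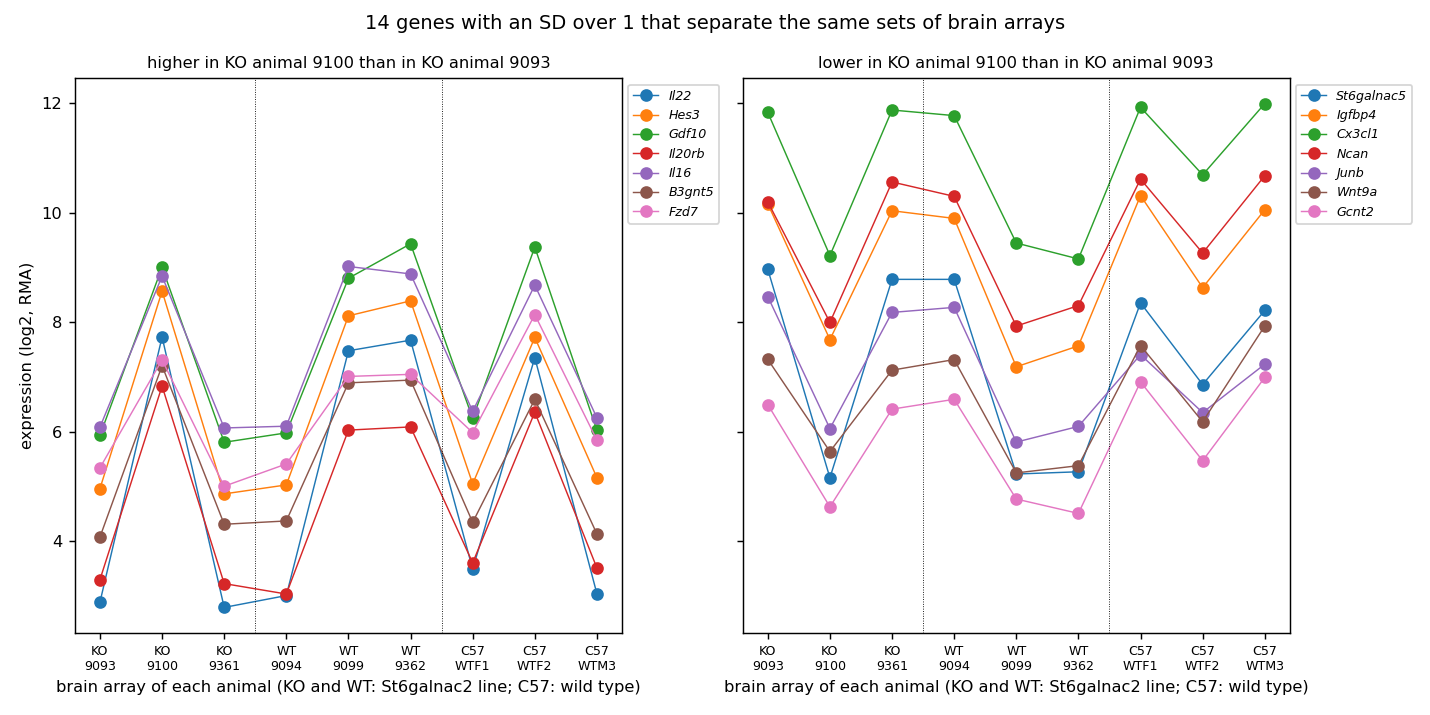
Expression (y axis, log2 RMA values) of the 14 genes with a standard deviation over 1 among the 9 brain arrays on which the set of 4 and the other 5 did not overlap, in the order St6galnac2 KO, St6galnac2 wild type and C57 wild type; lines join the values of a gene to guide the eye and imply no order. Genes at the left are higher in KO 9100 than in KO 9093 and genes at the right lower; Il22 lies between 7.35 and 7.73 on the 4 arrays and between 2.79 and 3.49 on the 5.

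Within brain a gene was called at an adjusted p under 0.05 alone, with no least difference, unlike in the tissue comparisons. Between St6galnac2 KO and wild-type brains (3 against 3, with sex in the fit) no gene was called by limma (0%), 16 had an unadjusted p under 0.05, and the smallest adjusted p was 0.887. The smallest p belonged to Cxcl12, a chemokine of the vessel wall and meninges, at 7.30 to 7.65 in KO brains against 6.99 to 7.36 in wild-type brains (difference 0.40 ± 0.11). Hes1 (a Notch target) differed by 0.34 ± 0.09, Il18r1 (an interleukin receptor) by 0.33 ± 0.10, Esm1 (an endothelial proteoglycan) by -0.31 ± 0.09 and B3gat2 by -0.38 ± 0.12. One KO and a pair of wild-type brains belong to the set of 4 arrays, so the spread of that split lies within both groups. With all brain groups in one fit and those 4 arrays left out, 1 gene was called, but wild type is then the single array of 9094, whose spread is assumed to be that of the other groups.
Between wild-type brains of the St6galnac2 line and C57 wild-type brains (3 against 3), no gene was called either (0%), although 234 had an unadjusted p under 0.05 and the smallest adjusted p was 0.0641. Fut4, a fucosyltransferase of Lewis x, was at 4.45 to 4.58 in the line against 5.18 to 5.29 in C57 brains (-0.72 ± 0.08), without overlap. B4galnt2 was at 4.51 to 4.95 in the line against 3.41 to 3.67 in C57 brains (1.18 ± 0.14), and Rab7, a late endosome GTPase, at 9.86 to 10.33 in the line against 8.50 to 9.05 in C57 brains. Rrn3, a polymerase I factor, differed by -0.66 ± 0.08 and Cd74 by -0.71 ± 0.10. The count changed with the fit: 25 genes were called with all brain groups in one fit and 63 when animal 9094 was left out. Without 9094 the wild-type brains of the line are 9099 and 9362, both of the set of 4. C57 WTF1 and WTM3 lie outside that set, so line and split are partly mixed in the 63 calls.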

How the data were processed

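Total RNA, extracted with Trizol and labelled as biotinylated cRNA per the labels' protocols, was hybridised to a custom Affymetrix array. The deposited values are log2 expression values made by robust multi-array averaging (RMA) per the submitters' processing notes, with no version and no statement of which arrays were normalized together. They were used as deposited. They run from 2.113 to 14.069, and array medians lay between 5.295 and 5.76. Of 1246 probe sets 963 were named through RefSeq identifiers (909 genes), 48 genes have several probe sets, and 217 probe sets carry a suffix for probes shared between transcripts. A gene was represented by its probe set with the highest mean.

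Arrays were averaged by animal and tissue. Brain was compared with the mean of the 7 tissue means, and with each tissue, by limma 3.58.1 in R 4.3.3 (2-sided), with Benjamini-Hochberg adjustment over the 963 named probe sets, counted over genes. Within brain, genotype was fitted with sex, and the line without it, because C57 animals carry no sex label. Calls within brain needed an adjusted p under 0.05 only, with no least difference. P-values measure the spread between animals within a tissue or a brain group. The fits over all tissues pooled lines and genotypes. They had no animal term, so different tissues of an animal counted as independent. The number of arrays limits the precision. Array levels of different probe sets were not compared. The fit of brain against the mean of the 7 tissues was tested on simulated data.

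The brain arrays, markers and 51 gene lists were chosen with earlier results of these data known, and the last 5 lists were added after the array's gene symbols were seen. Genes were named by a rule: the markers, the 15 largest differences upward and 10 downward, up to 6 called genes of each list (or, with none called, the member with the largest difference), the 10 widest margins over the next tissue, all genes below every tissue, the 5 smallest p of the comparisons within brain, and the targeted genes. Alternatives were all arrays as labelled, animal as a block, each animal left out, centring, a second quantile normalization, a filter on low values, other limits, other probe sets, wild-type arrays or 1 line only, other weights of the tissues, and, chosen after seeing the data, fits without either set of brain arrays. The animal number did not pair tissues: the median correlation of deviations was 0.002 for the same KO animal against -0.011 for different ones, 0.007 against -0.002 in line wild type, and -0.058 against 0.017 in C57 mice.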

Additional observations from a re-analysis of the deposited data

Results flagged for a closer look

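Among the 196 genes named by rule, 2 had a brain array far from the other 8, by a gap over 0.493 of the range. Chance flags about 1 in 20 such groups. Hs6st2 was highest in C57 WTF2, at 8.67, and Igfbp3 (an insulin-like growth factor binding protein) was highest in the same animal, at 7.20. Hs6st2 was above each of the 7 tissues, and the lowest brain array, at 8.09, was above every other array.

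Arrays and probe sets outside the comparison carried signal. The array labelled intestine of animal 9099 had Fut9 at 9.74, in the range of the brain arrays, and was not used. Of the 283 probe sets without a gene symbol, 19 were called higher in brain and 19 lower by the same limits; they were not analysed further here.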

How the results depend on the processing

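The counts against the mean of the 7 tissues stayed within 1.5 times of 156 higher and 134 lower, except where the limit on size was changed: 300 higher and 446 lower with no least difference, and 68 and 24 with a least difference of 2. Genes above each tissue became 126 and 22 under those 2 limits, and genes below each tissue 39 and 1, 3 with all arrays as labelled and 10 after a second quantile normalization. Leaving out each of the 9 animals that gave brain (the other 9 were not left out in turn) gave 155 to 158 higher and 132 to 140 lower against the mean, 65 to 67 above and 5 to 6 below each tissue, and, of the 0 called between the St6galnac2 line and C57 brains, 0 to 63. The 63 came without 9094, when the line's wild-type brains were 9099 and 9362, both of the set of 4. All brain groups in one fit gave 25 calls for that comparison and, without the brain arrays of 9099, 9100, 9362 and WTF2, 19, and 1 between KO and wild-type brains, both with 9094 as the lone wild-type brain of the line; the cause was not tested. With the animal as a random replicate block (correlation 0.0729) 157 genes were higher and 135 lower, and with a fixed replicate block in C57 mice 152 and 156. The block changed no count by over 1.5 times. With intestine left out of the other tissues, 158 genes were higher in brain and 129 lower. They included 150 of the 156 higher and 111 of the 134 lower genes, so some lower calls rest on intestine. Without C57 WTF1 the C57 comparison had 115 higher and 112 lower. Of 194 named genes tested against the mean, 142 kept direction and call in all 22 alternatives; Cxcl12 (-1.06) turned to 0.20 with its probe set of lowest mean. List medians near 0 changed sign with scaling for N-glycan trimming, TGF-beta and BMP, galactosyl extension, lysosomal and polypeptide GalNAc transferase genes. The median of all genes was -0.15, -0.08 after centring and -0.11 after the second quantile normalization.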

Other observations

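Of 28 Wnt and frizzled genes 1 was higher and 1 lower (median -0.13): Wnt7a, a ligand made by neurons and progenitors, was at 6.95, 7.24 and 8.70 in brain (lowest, median and highest of 9), against 4.49, 5.06 and 6.12 on the 47 other arrays, and Fzd5 was lower by 1.29 ± 0.15 in size. The count of higher Wnt genes was 5 without the set of 4 brain arrays that stood apart and 3 with that set alone. Of 35 TGF-beta and BMP genes 4 were higher (11.4%) and 2 lower (5.71%), under the 17.2% and 14.7% over all genes. Gdf1, Bmpr1b (a BMP receptor) and Nog (noggin, a BMP inhibitor) were above each of the 7 tissues, with differences of 3.05 ± 0.10, 2.37 ± 0.10 and 1.87 ± 0.10. Of 13 Notch genes Rfng and Lfng, which add GlcNAc to Notch, and the ligand Jag2 were higher, and Notch2 was lower, a share of calls close to that over all genes. With the set of 4 brain arrays alone Jag2 (0.85) and Notch2 (-0.89) were not called.

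Of 24 lysosomal genes 4 were higher (16.7%) and 2 lower (8.33%), no more than the 17.2% and 14.7% over all genes. Gaa, the acid glucosidase of glycogen breakdown, was at 9.49, 9.96 and 10.29 in brain, against 6.82, 7.88 and 9.28 elsewhere, and Smpd1, the acid sphingomyelinase, was higher by 1.65 ± 0.10. Aga and Gusb, which release asparagine-linked sugar and glucuronic acid, were lower by 1.45 ± 0.12 and 1.17 ± 0.12 in size.

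The 36 reference genes outside glycobiology were not level across tissues: 9 were higher in brain and none lower, with a median of 0.37. Atp6v0d1, a subunit of the vacuolar proton pump, was at 11.62, 11.88 and 11.95 in brain, against 9.33, 10.06 and 10.93 elsewhere.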
